A study of Rattus norvegicus with 32 samples.

Results

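The question of this comparison was whether METH changed gene expression differently in the nucleus accumbens (NAc) and in the subventricular zone (SVZ) of the rat brain. For each gene, the change from saline to METH in the SVZ was subtracted from the change in the NAc, and this difference of differences is called the interaction. A value above 0 means that the METH effect was more positive in the NAc, and a value below 0 that it was more positive in the SVZ. The members were the 27263 autosomal genes among the 28914 gene names in the count files, of which 15182 had enough reads to be tested. They were measured in 16 of the 32 RNA-seq samples of the study, 4 in each of the groups NAc Sal, NAc METH, SVZ Sal and SVZ METH.

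All samples came from adult male Sprague-Dawley rats. METH (methamphetamine hydrochloride, 10 mg/kg) was injected intraperitoneally 4 times at intervals of 2 h, and control rats received saline (1 mL/kg) on the same schedule. At 24 h after the final dose, tissue was punched (1 mm) from frozen slices, so each sample holds every cell type that the punch reached. The labels do not say how many rats each sample holds or whether NAc and SVZ samples came from the same rats. The p-values therefore measure the spread between these samples. In the SVZ METH group, the 4 libraries carry only 2 different library numbers in the file headers, and no pair of samples in any group agreed within sampling noise. The sequencing run was inferred from names in these headers. Of these samples, NAc Sal 1 and 2 form 1 run and NAc METH 3 and 4 another. Only the run of NAc Sal 3 and 4 and NAc METH 1 and 2 holds both treatments. In the NAc, run and METH therefore cannot be fully told apart.

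METH enters dopamine terminals, releases dopamine into the synapse and, at high repeated doses, damages these terminals and is followed by activation of astrocytes and microglia. The NAc is part of the ventral striatum, where dopamine acts on spiny projection neurons that carry either the Drd1 or the Drd2 receptor. The SVZ lies between the dorsal striatum and the lateral ventricle, and it holds neural stem cells, neuroblasts, astrocytes, ciliated ependymal cells and nearby white matter. Both punches can thus hold striatal neurons, and the SVZ punch can also reach the choroid plexus, which floats in the ventricle.

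The marker genes of these cell types were examined first. In such bulk samples, fewer cells of a type and less RNA per cell cannot be told apart. Levels are given in CPM, read counts divided by the total over tested genes in their sample times an upper-quartile factor, on a common scale. The 24 genes of striatal projection neurons and dopamine signalling had summed levels of 17443, 3805, 8348 and 4215 CPM in NAc Sal 1 to 4 and of 6446, 7658, 909 and 7580.2 CPM in NAc METH. In the SVZ the sums were 1466, 7049.7, 11999.5 and 8445 CPM after saline and 3954, 1183, 5937 and 1995 CPM after METH. NAc METH 3 was lowest of all 16 samples, and the saline samples of the 2 regions overlapped. The 20 genes of ciliated ependymal cells, which should mark the SVZ, lay between 86.3 and 345 CPM in NAc Sal and between 153 and 1262 CPM in SVZ Sal. The 2 ranges overlapped. SVZ METH 4, at 77.1 CPM, was below every NAc saline sample, and SVZ METH 2, at 90.0 CPM, below all but NAc Sal 1. The 15 genes of neural stem cells and neuroblasts summed to 193 to 231 CPM in NAc Sal and 153 to 436 CPM in SVZ Sal. Genes of thalamic neurons, a cell type of neither region, summed to 2204 CPM in SVZ Sal 1 and to 1869 and 1292 CPM in SVZ METH 2 and 4, against 58.9 to 199 CPM in NAc Sal. The part of these differences in the results that follow was not tested.

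**Figure D1:**
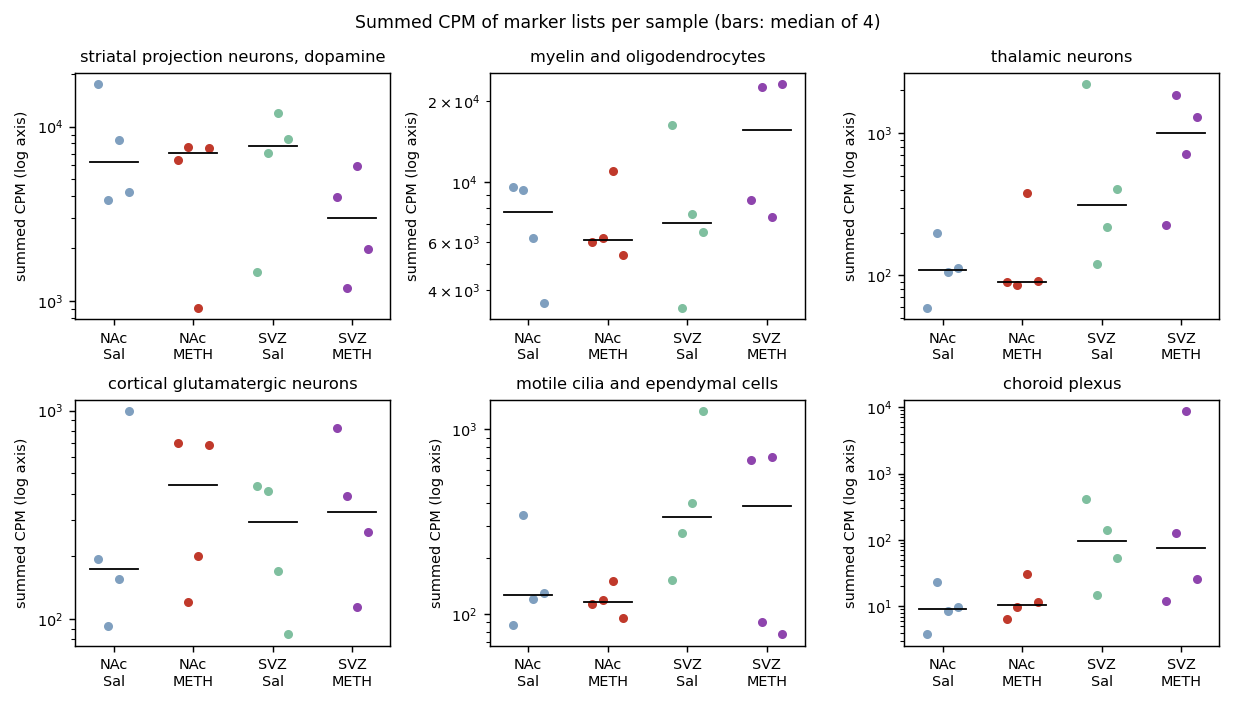
Summed CPM of 6 marker lists (vertical log axes) in each of the 16 samples, with a bar at the median of each group of 4. NAc METH 3 has the lowest sum of striatal genes (909 CPM), SVZ METH 2 and 4 have the highest sums of myelin genes (22522 and 23012 CPM), and SVZ METH 3 has the highest sum of choroid plexus genes (8838 CPM).

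No autosomal gene passed the test of the interaction (edgeR's quasi-likelihood test, FDR under 0.01 and a fold above 2), which is 0 percent of the 15182 tested, and the FDR (adjusted p) of every gene was 1.00 to 2 decimals. DESeq2, TMM normalization and limma voom also called 0 genes. At an unadjusted p under 0.05 there were 198 genes (1.3 percent) by the main test, 224 by DESeq2, 189 with TMM and 174 by limma voom. With no effect in any gene, a share of about 0.05 would fall there, so these numbers are no excess. Of the 198, 134 were above 0 (0.883 percent) and 64 below 0 (0.422 percent). The median interaction was 0.01 on the log2 scale and its median SE was 0.30, so that the 95% interval of a typical gene reached 0.64 to either side. For 8822 genes (58.1 percent) the interval lay within a 2-fold difference in either direction, and for the others it reached beyond 2-fold. Without NAc METH 3 there were 572 genes at an unadjusted p under 0.05, and without SVZ Sal 1 there were 891, with 0 calls in both. The missed threshold does not show that METH acted alike in both regions.

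The METH effect within each region was read from the same fit. In the NAc 0 genes passed the threshold and 372 (2.45 percent) had an unadjusted p under 0.05, 275 of them higher after METH (1.81 percent) and 97 lower (0.639 percent). In the SVZ 0 genes passed (DESeq2 called 2 there and 0 in the NAc), and 525 (3.46 percent) had an unadjusted p under 0.05, 283 of them higher after METH (1.86 percent) and 242 lower (1.59 percent). In both regions the share was below the 0.05 that no effect in any gene would give. Across the 15182 genes, the 2 effects had a Pearson r of 0.289 and a Spearman rho of 0.335, as a description over genes that share the libraries of each region and are not independent. The METH and saline samples did not overlap for 367 genes (2.42 percent) in the NAc and for 241 (1.59 percent) in the SVZ. A random order of the samples would separate a somewhat larger share. The signs of the 2 effects were opposite in 5677 genes (37.4 percent). Genes with an interaction p under 0.05 were chosen for a difference between the 2 effects, which by itself favours opposite signs. As a description with no test, the signs were opposite in 120 of the 134 above 0 and in 58 of the 64 below 0. Of the same genes, 44 and 17 had a p of 0.05 or more in both single regions. The plot of the effects against each other shows these genes on both sides of the diagonal.

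**Figure D2:**
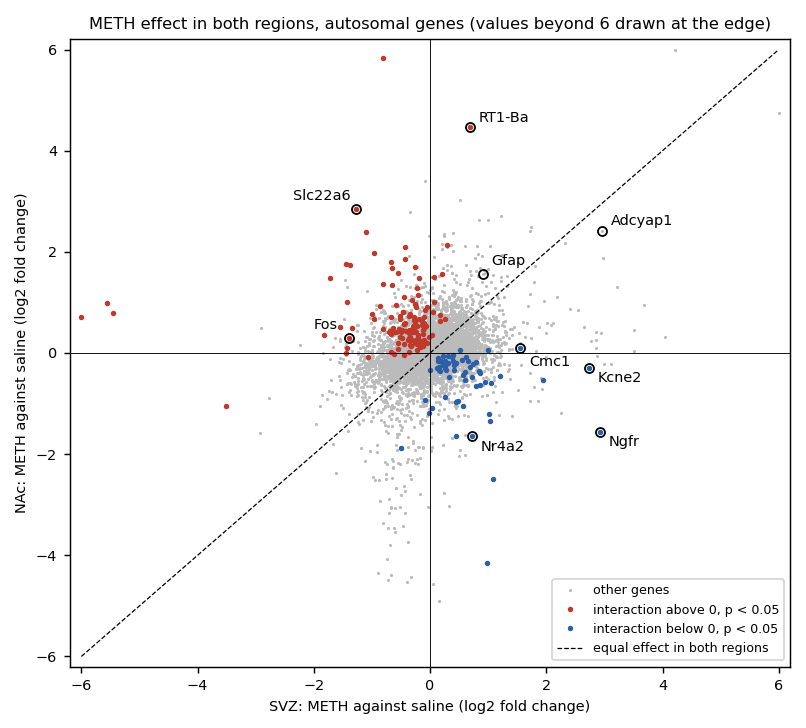
METH effect in the NAc (vertical axis, log2 fold change) against that in the SVZ (horizontal axis, log2 fold change) for the 15182 autosomal genes tested. The 134 red and 64 blue points have an unadjusted interaction p under 0.05 and lie above and below the dashed line of equal effects, and Gfap lies at 1.57 in the NAc and 0.90 in the SVZ.

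Among the genes with the smallest interaction p above 0, Elovl2, Abhd1 and Ewsr1 had METH effects of opposite sign in the 2 regions. The intervals given for single genes are not adjusted for the number of genes tested. Elovl2 (chromosome 17, 21382455 to 21422407, rn6) encodes an elongase of very long polyunsaturated fatty acids. Its level was 62.9, 62.1, 61.7 and 64.9 CPM in NAc Sal and 87.7, 80.2, 57.3 and 82.0 CPM in NAc METH. In the SVZ it was 53.9, 60.5, 53.8 and 52.5 CPM after saline and 42.5, 46.6, 40.7 and 41.7 CPM after METH. All 4 SVZ METH samples were below all SVZ saline samples, and 3 of 4 NAc METH samples were above all NAc saline samples, NAc METH 3 being below them. The log2 interaction was 0.65 ± 0.16 (SE, 95% interval 0.32 to 0.98), and its edgeR FDR was 1.00. The METH effect was 0.29 ± 0.11 in the NAc and -0.36 ± 0.11 in the SVZ.

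Abhd1 (chromosome 6, 26784058 to 26792808), which encodes a protein with an alpha/beta hydrolase fold, had the same pattern. It was at 23.5, 23.2, 25.5 and 22.8 CPM in NAc Sal, 29.1, 29.0, 25.3 and 28.3 CPM in NAc METH, 24.5, 23.1, 27.3 and 27.8 CPM in SVZ Sal and 21.0, 21.3, 22.0 and 23.6 CPM in SVZ METH. The groups overlapped by 1 sample in each region, NAc METH 3 and SVZ METH 4. Its log2 interaction was 0.46 ± 0.12 (SE, 95% interval 0.20 to 0.72). Ewsr1 (chromosome 14, 85322296 to 85350948), an RNA-binding protein of the FET family, lay near 1 CPM, at 0.918, 1.08, 0.797 and 1.27 CPM in NAc Sal and 1.24, 1.92, 1.56 and 1.90 CPM in NAc METH. In the SVZ it was at 1.29, 1.78, 1.37 and 1.47 CPM after saline and 1.30, 0.999, 1.08 and 0.762 CPM after METH, so that the groups overlapped slightly in both regions. The log2 interaction of Ewsr1 was 1.21 ± 0.33 (SE, 95% interval 0.50 to 1.93). Elovl2, Abhd1 and Ewsr1 were the 3 genes with an unadjusted p under 0.05 in both regions that were higher after METH in the NAc and lower in the SVZ.

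Lamb3 (chromosome 13, 112031594 to 112073186), a chain of the basement membrane protein laminin, was at 3.44, 2.10, 3.01 and 2.09 CPM in NAc Sal and 5.62, 3.76, 2.27 and 6.58 CPM in NAc METH. In SVZ Sal it was at 4.02, 3.56, 2.35 and 2.82 CPM and in SVZ METH at 0.920, 1.26, 2.77 and 1.38 CPM. NAc METH 3 and SVZ METH 3 lay within the saline ranges of their regions and the other METH samples outside them. The log2 interaction was 1.78 ± 0.52 (SE, 95% interval 0.66 to 2.89). AABR07054460.4 (chromosome 3, 154850173 to 154851168), a gene without a name, had NAc METH values of 1.72, 1.57, 1.63 and 1.56 CPM, all above the 0.995, 1.36, 1.24 and 0.970 CPM of NAc Sal. It was at 1.00, 1.73, 1.42 and 2.24 CPM in SVZ Sal and 1.08, 1.16, 0.892 and 0.952 CPM in SVZ METH, where the groups overlapped, and its log2 interaction was 1.14 ± 0.34 (SE, 95% interval 0.42 to 1.87).

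**Figure D3:**
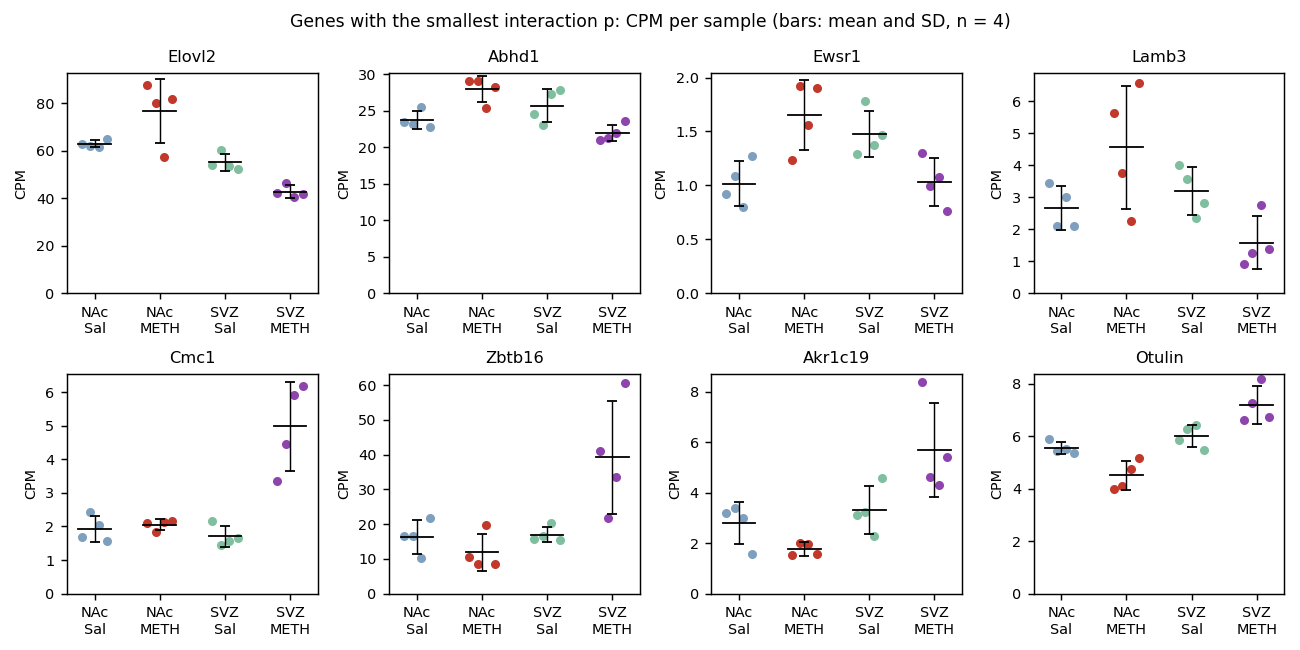
CPM (vertical axes, from 0) of 8 genes with a small interaction p in the 16 samples, with the mean and SD of each group of 4. In the upper row the NAc METH mean is above and the SVZ METH mean below that of the saline samples. In the lower row the SVZ METH mean is above that of SVZ Sal, and all 4 SVZ METH samples of Cmc1 (3.35 to 6.19 CPM) exceed all other samples.

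Genes of the major histocompatibility complex and its neighbourhood on chromosome 20 were also among the first genes in both directions. AABR07044362.1 (chromosome 20, 3135791 to 3140610) and AABR07044362.6 (chromosome 20, 3134704 to 3135301) lie next to each other and are without a name. The first was at 0.0765, 3.53, 3.63 and 0.0747 CPM in NAc Sal and 2.38, 3.24, 3.97 and 2.98 CPM in NAc METH. It was at 2.82, 4.24, 0.0490 and 2.94 CPM in SVZ Sal and 0, 0, 0.188 and 0 CPM in SVZ METH. Each sample was either above 2 CPM or below 0.2 CPM, and the low samples were NAc Sal 1 and 4, SVZ Sal 3 and all of SVZ METH. AABR07044362.6 had 0 reads in every sample in which the first gene was low, with 0, 3.19, 2.75 and 0 CPM in NAc Sal, 2.48, 2.10, 2.63 and 2.51 CPM in NAc METH and 2.97, 2.60, 0 and 1.94 CPM in SVZ Sal. Over the pooled libraries it was at least 50.1-fold higher in SVZ Sal than in SVZ METH (149 counts against a limit of 3 counts over the group), which covers counting error only. The log2 interaction of AABR07044362.1 was 6.25 ± 1.78 (SE, 95% interval 2.45 to 10.05), while a fitted value of AABR07044362.6 depends on the prior count.

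RT1-Ba (chromosome 20, 4066132 to 4070721), the alpha chain of a class II molecule that presents antigen on microglia and other immune cells, was at 0, 0, 0.0886 and 0.149 CPM in NAc Sal and 0.953, 0.437, 1.28 and 2.98 CPM in NAc METH. These are 3 counts after saline and 77 after METH, 44 of them in NAc METH 4. The ratio over the pooled libraries was 26.5, with an exact 95% interval of 8.75 to 132. This interval covers counting error only and not the spread between samples. In the SVZ RT1-Ba was at 1.82, 0.963, 0.490 and 1.29 CPM after saline and 0.541, 0.999, 2.54 and 3.24 CPM after METH. All NAc METH samples were above all NAc saline samples, while the SVZ groups overlapped. The log2 interaction of RT1-Ba was 3.78 ± 1.17 (SE, 95% interval 1.28 to 6.28). With the sequencing run, as inferred from names in the file headers, as a covariate, it was 1.76 and no longer had an unadjusted p under 0.05. In the run that holds both treatments, NAc Sal 3 and 4 were below NAc METH 1 and 2. RT1-N2 (chromosome 20, 3146856 to 3150852), a class I gene, was at 3.60, 3.80, 3.19 and 10.8 CPM in NAc Sal and 2.29, 2.01, 2.91 and 3.05 CPM in NAc METH. The SVZ values were 2.77, 2.84, 3.87 and 3.47 CPM after saline and 4.60, 6.67, 4.13 and 3.76 CPM after METH. NAc METH was below NAc Sal in all samples, NAc Sal 4 was far above the others, and the log2 interaction was -1.62 ± 0.50 (SE, 95% interval -2.68 to -0.56). Without NAc Sal 4 it was -1.02. Genes of this complex have near-identical copies, so how reads were shared between them is uncertain.

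Below 0, the smallest p belonged to Cmc1 (chromosome 8, 126437345 to 126495347), a mitochondrial protein of cytochrome c oxidase assembly. It was at 2.15, 1.44, 1.57 and 1.65 CPM in SVZ Sal and 3.35, 4.47, 5.92 and 6.19 CPM in SVZ METH, with no overlap. NAc Sal was at 1.68, 2.44, 2.04 and 1.57 CPM and NAc METH at 2.10, 1.84, 2.13 and 2.17 CPM, in 1 common range. Its log2 interaction was -1.45 ± 0.32 (SE, 95% interval -2.13 to -0.77), and its edgeR FDR was 1.00. The SVZ effect alone was 1.54 ± 0.22 (SE, edgeR FDR 0.093), the smallest FDR of any autosomal gene in either region.

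Zbtb16 (chromosome 8, 52985313 to 53146953), a zinc finger transcription factor that responds to glucocorticoids in several tissues, was at 15.7, 16.5, 20.3 and 15.5 CPM in SVZ Sal and 40.9, 21.7, 33.6 and 60.6 CPM in SVZ METH. In the NAc it was at 16.5, 16.5, 10.2 and 21.9 CPM after saline and 10.5, 8.48, 19.8 and 8.68 CPM after METH. All SVZ METH samples exceeded all SVZ saline samples, whereas NAc METH 2 and 4 were below all NAc saline samples and NAc METH 1 and 3 within their range. The log2 interaction was -1.66 ± 0.46 (SE, 95% interval -2.64 to -0.68). Galc (chromosome 6, 122178602 to 122239614), the lysosomal enzyme that degrades the myelin lipid galactosylceramide, was at 9.11, 9.63, 8.42 and 8.66 CPM in NAc Sal and 5.43, 5.51, 8.23 and 6.58 CPM in NAc METH, with no overlap. Its SVZ levels were 7.70, 7.46, 7.70 and 11.7 CPM after saline and 10.6, 10.9, 10.7 and 11.1 CPM after METH, where SVZ Sal 4 was above all METH samples. The log2 interaction of Galc was -0.80 ± 0.23 (SE, 95% interval -1.29 to -0.31).

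A pair of neighbouring genes for aldo-keto reductases of the 1C family, enzymes that reduce carbonyl groups of steroids and aldehydes, followed the same direction. Akr1c19 (chromosome 17, 69654170 to 69675203) was at 3.21, 3.39, 3.01 and 1.57 CPM in NAc Sal and 1.52, 2.01, 1.99 and 1.56 CPM in NAc METH. In the SVZ it was at 3.11, 3.23, 2.30 and 4.59 CPM and 8.38, 4.62, 4.32 and 5.43 CPM. It was the only gene with an unadjusted p under 0.05 in both regions that was lower after METH in the NAc and higher in the SVZ, and its groups overlapped in each, through NAc Sal 4 and SVZ Sal 4. Akr1c13 (chromosome 17, 69634890 to 69647765) was at 1.82, 1.16, 1.52 and 1.47 CPM in SVZ Sal and 4.60, 3.52, 1.83 and 2.43 CPM in SVZ METH, barely separated, and at 1.45, 1.02, 1.42 and 0.672 CPM and 0.763, 0.700, 0.993 and 0.542 CPM in the NAc. The log2 interaction was -1.44 ± 0.41 (SE, 95% interval -2.31 to -0.57) for Akr1c19 and -1.64 ± 0.46 (SE, 95% interval -2.63 to -0.65) for Akr1c13. The family holds close copies, so the 2 genes may share reads and are not independent.

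Otulin (chromosome 2, 80269587 to 80293181), a deubiquitinase that removes linear ubiquitin chains in inflammatory signalling, was the only autosomal gene whose groups did not overlap in either region and had opposite directions (0.00659 percent of those tested). NAc Sal was at 5.89, 5.42, 5.49 and 5.37 CPM and NAc METH at 4.0, 4.11, 4.75 and 5.15 CPM. SVZ Sal was at 5.84, 6.26, 6.42 and 5.47 CPM and SVZ METH at 6.60, 7.25, 8.17 and 6.71 CPM. Every NAc METH sample was thus below, and every SVZ METH sample above, the saline samples of its region, by a log2 interaction of -0.56 ± 0.18 (SE, 95% interval -0.94 to -0.18). Itga9 (chromosome 8, 127271289 to 127572988), an integrin chain, had SVZ METH values of 9.09, 13.6, 7.51 and 11.1 CPM against 7.27, 4.77, 7.94 and 7.24 CPM in SVZ Sal. Its NAc values were 8.50, 6.85, 5.94 and 7.84 CPM after saline and 4.67, 6.21, 7.17 and 4.47 CPM after METH. The groups overlapped in both regions, and the log2 interaction was -0.97 ± 0.31 (SE, 95% interval -1.64 to -0.30). Of these 16 genes, 10 had a mean level under 5 CPM. In all 16 the unadjusted p stayed under 0.05 when any single sample was left out, but only in 14 also in each of the 17 alternatives. This is no independent support for genes chosen by their p in these samples. None of the 16 passed the adjustment over all genes.

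Genes of dopamine signalling had negative median METH effects in both regions, and none passed the test in either. Of the 24 striatal genes, 22 had an interaction above 0 (51.9 percent of all genes did), with a median of 0.60 against 0.01 over all autosomal genes. The median METH effect was -0.57 in the NAc and -1.17 in the SVZ, and 0 of 24 interactions had an unadjusted p under 0.05. Drd1, the receptor of the direct pathway, was at 389, 99.2, 232 and 142 CPM in NAc Sal and 194, 231, 7.45 and 228 CPM in NAc METH. Its SVZ values were 21.5, 215, 229 and 176 CPM after saline and 84.0, 20.2, 131 and 37.3 CPM after METH. NAc METH 3 and SVZ Sal 1 were the lowest of their groups by far, and the log2 interaction was 0.85 ± 1.20 (SE, 95% interval -1.72 to 3.42). For Drd2, the receptor of the indirect pathway, the log2 interaction was 0.50 ± 1.27 (SE, 95% interval -2.23 to 3.22), and for Ppp1r1b, which encodes the dopamine-regulated phosphatase inhibitor DARPP-32, 0.53 ± 1.36 (SE, 95% interval -2.38 to 3.44). Gnal, the G protein alpha subunit through which striatal D1 receptors signal, and Pde1b, a cyclic nucleotide phosphodiesterase, had the smallest p of the list, with log2 interactions of 0.76 ± 0.64 (SE, 95% interval -0.59 to 2.12) and 0.83 ± 0.96 (SE, 95% interval -1.23 to 2.89). With single samples left out, the list median ran from 0.24 (without SVZ Sal 3) to 1.10 (without NAc Sal 1). The sum of the whole list varied 8.42-fold within NAc METH and 8.19-fold within SVZ Sal.

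Neuropeptides and their receptors had no member with an interaction p under 0.05. Of 16 neuropeptide genes tested, 10 were above 0 with a median of 0.67, and of 15 peptide receptors 9 were above 0 with a median of 0.20. Pdyn, the precursor of the dynorphins, was at 121, 84.1, 199 and 92.8 CPM in NAc Sal and 224, 302, 61.1 and 266 CPM in NAc METH. It was at 19.5, 135, 119 and 115 CPM in SVZ Sal and 80.3, 13.6, 133 and 79.0 CPM in SVZ METH. Except for NAc METH 3, the NAc METH samples were above all NAc saline samples, and the log2 interaction was 1.13 ± 0.91 (SE, 95% interval -0.82 to 3.08). Tac3, the neurokinin B precursor, had 1.01 ± 0.83 (SE, 95% interval -0.77 to 2.79), and Tac1, the substance P precursor of direct pathway neurons, 0.99 ± 1.30 (SE, 95% interval -1.78 to 3.76). Among the receptors, Tacr3, which binds neurokinin B, had -1.36 ± 1.00 (SE, 95% interval -3.50 to 0.78) and Oprd1, the delta opioid receptor, 0.96 ± 0.78 (SE, 95% interval -0.71 to 2.62). With single samples left out, the median ran from -0.10 (without NAc METH 3) to 0.83 (without SVZ Sal 4) for the neuropeptides and from -0.06 (without SVZ Sal 2) to 0.43 (without SVZ METH 1) for the receptors.

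Immediate early genes, which neurons transcribe within minutes of activity, included 3 members with an interaction p under 0.05 among 22 tested, 2 above and 1 below 0 (background 1.3 percent). In all, 17 of 22 were above 0, with a median of 0.40 that ran from 0.11 (without SVZ METH 2) to 0.67 (without SVZ METH 1). The median METH effect was -0.28 in the NAc and -0.60 in the SVZ. Fos, a subunit of the AP-1 transcription factor, was at 13.6, 6.26, 17.5 and 26.8 CPM in SVZ Sal and 4.87, 5.94, 7.66 and 6.0 CPM in SVZ METH. NAc Sal was at 6.43, 5.15, 2.92 and 9.26 CPM and NAc METH at 7.72, 3.41, 10.3 and 7.93 CPM. SVZ METH was below 3 of 4 SVZ saline samples, SVZ Sal 2 lying inside the METH range, the NAc groups overlapped, and the log2 interaction was 1.69 ± 0.60 (SE, 95% interval 0.42 to 2.97). Npas4, an activity-dependent transcription factor that is named here after its values were seen, was at 2.39, 8.57, 42.8 and 52.6 CPM in SVZ Sal and 4.98, 0.893, 1.55 and 1.86 CPM in SVZ METH. In the NAc it was at 6.05, 5.36, 3.46 and 13.2 CPM after saline and 2.95, 2.71, 2.63 and 5.22 CPM after METH. SVZ Sal 3 and 4 were far above all other samples, and the log2 interaction was 2.47 ± 1.09 (SE, 95% interval 0.13 to 4.80).

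Nr4a2, an orphan nuclear receptor, was the early gene with an interaction below 0 and an unadjusted p under 0.05. It was at 11.7, 4.95, 12.2 and 47.6 CPM in NAc Sal and 5.43, 4.28, 6.74 and 7.93 CPM in NAc METH, and at 6.12, 5.87, 3.23 and 2.94 CPM in SVZ Sal and 15.2, 5.47, 4.32 and 5.09 CPM in SVZ METH. NAc Sal 4 and SVZ METH 1 stood above the rest of their groups, and the same 2 samples had the highest sums of cortical neuron genes in their groups, 999 and 823 CPM. The log2 interaction of Nr4a2 was -2.36 ± 0.83 (SE, 95% interval -4.14 to -0.59) and, without NAc Sal 4, -1.37. The zinc finger genes Egr1, Egr2 and Egr4 had log2 interactions of 0.79 ± 0.86 (SE, 95% interval -1.06 to 2.64), 0.40 ± 1.25 (SE, 95% interval -2.28 to 3.08) and 0.84 ± 1.21 (SE, 95% interval -1.75 to 3.44), and Fosb, another AP-1 subunit, 0.42 ± 0.86 (SE, 95% interval -1.42 to 2.26). In each of the 3 Egr genes, NAc METH 3, SVZ Sal 1 and SVZ METH 2 were the lowest samples of their groups.

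**Figure D4:**
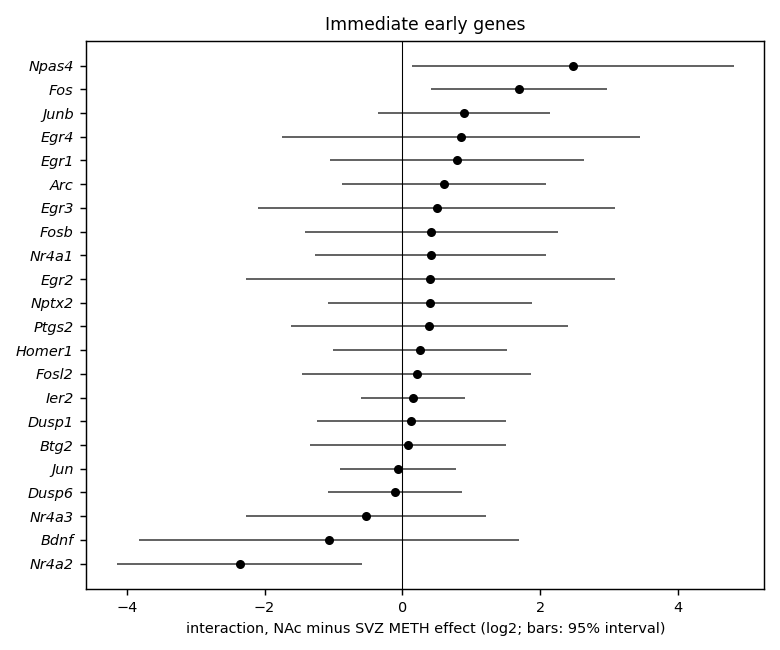
Log2 interaction (horizontal axis, NAc METH effect minus SVZ METH effect) with its 95% interval for the 22 immediate early genes tested. The interval excludes 0 for Npas4 (2.47), Fos (1.69) and Nr4a2 (-2.36), before adjustment over all genes.

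Ion channel and synaptic genes had list medians slightly above the 0.01 of all genes. The median METH effects of the channel list were -0.08 in the NAc and -0.50 in the SVZ. Those of the glutamate list were -0.13 and -0.39. Of 31 potassium and HCN channel genes, 20 had an interaction above 0, with a median of 0.18, and 0 had a p under 0.05. Kcnt1, a sodium-activated potassium channel, had a log2 interaction of 0.64 ± 0.47 (SE, 95% interval -0.36 to 1.64) and Kcnip3, a calcium-binding channel partner, 0.75 ± 0.61 (SE, 95% interval -0.57 to 2.06). Of 23 genes of glutamate receptors and the postsynaptic density, 16 were above 0, with a median of 0.20 and 0 with a p under 0.05. Grin1, the obligate subunit of NMDA receptors, was at 450.4, 483, 539 and 482 CPM in SVZ Sal and 371, 394, 365 and 359.8 CPM in SVZ METH. It was at 539, 401, 493 and 512 CPM in NAc Sal and 479.6, 453, 350.4 and 479 CPM in NAc METH. The SVZ groups did not overlap (1.59 percent of all genes) and the NAc groups did, with a log2 interaction of 0.25 ± 0.17 (SE, 95% interval -0.11 to 0.61). Leaving out single samples moved the median of the channel genes from 0.09 (without NAc METH 4) to 0.40 (without NAc METH 3) and that of the glutamate genes from 0.10 (without NAc METH 1) to 0.36 (without NAc Sal 1). Camk2a, the kinase of synaptic plasticity, had 0.67 ± 0.61 (SE, 95% interval -0.64 to 1.98). Nrn1, a secreted factor of neurite growth, had 0.32 ± 1.35 (SE, 95% interval -2.57 to 3.20), and its levels ranged from 5.33 to 55.0 CPM within NAc METH.

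Myelin genes lay on the other side. All 20 genes of myelin and oligodendrocytes had an interaction below 0 (7310 of the 15182 genes did), with a median of -0.78, a median METH effect of 0.01 in the NAc and of 0.76 in the SVZ, and 0 with an interaction p under 0.05. The list summed to 16322, 3417, 7644 and 6527 CPM in SVZ Sal and 8585, 22522, 7418 and 23012 CPM in SVZ METH. In the NAc it summed to 9625, 9369, 6201 and 3564 CPM and 6021, 6234, 11039 and 5387 CPM. SVZ METH 2 and 4 and SVZ Sal 1 held the 3 highest sums, and these are also the 3 SVZ samples with the lowest striatal and the highest thalamic sums. The file headers mark these 3 samples and SVZ Sal 2 as EXTRA, and SVZ Sal 2 had the lowest myelin sum of the SVZ. Mbp, the main protein of compact myelin, had a log2 interaction of -0.91 ± 0.74 (SE, 95% interval -2.48 to 0.67), Tspan2, a tetraspanin of oligodendrocytes, -1.06 ± 0.51 (SE, 95% interval -2.15 to 0.03) and Aspa, the enzyme that cleaves N-acetylaspartate, -0.89 ± 0.45 (SE, 95% interval -1.85 to 0.06). Without SVZ Sal 1 the list median was -1.31 and without SVZ Sal 2 it was -0.52. Of 7 genes of oligodendrocyte precursors, 7 were below 0, with a median of -0.21, which ran from -0.27 (without NAc Sal 1) to -0.08 (without NAc Sal 2). Enpp6, a phosphodiesterase of newly forming oligodendrocytes, had -1.26 ± 0.57 (SE, 95% interval -2.48 to -0.05) and Bmp4, a growth factor, -0.80 ± 0.40 (SE, 95% interval -1.66 to 0.06).

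Astrocyte and microglia lists had positive median METH effects in both regions, 0.39 in the NAc and 0.24 in the SVZ for reactive astrocytes, and none of their genes passed the test. Gfap, the intermediate filament of reactive astrocytes, was at 235, 289, 230.3 and 279.7 CPM in NAc Sal and 615, 365, 1091 and 993 CPM in NAc METH, without overlap. The highest values were those of NAc METH 3 and 4, from the run without saline samples. NAc METH 1 and 2 were also above NAc Sal 3 and 4 of their own run. In SVZ Sal Gfap was at 679, 255, 467 and 413 CPM and in SVZ METH at 529, 713, 1366 and 782 CPM, where SVZ Sal 1 lay among the METH samples. The METH effect was 1.57 ± 0.37 in the NAc and 0.90 ± 0.36 in the SVZ, both with an unadjusted p under 0.05. Their difference was 0.66 ± 0.51 (SE, 95% interval -0.42 to 1.75). Of 15 reactive astrocyte genes, 9 were above 0, with a median of 0.31, which ran from 0.05 (without NAc METH 4) to 0.77 (without SVZ METH 3). Cp, the copper-binding ferroxidase ceruloplasmin, had 0.97 ± 0.45 (SE, 95% interval 0.01 to 1.93) and Cd44, a hyaluronan receptor, 0.71 ± 0.41 (SE, 95% interval -0.17 to 1.58). Of 14 genes of homeostatic astrocytes, 11 were above 0, with a median of 0.19, which ran from 0.03 (without NAc METH 3) to 0.27 (without SVZ METH 4).

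Slc1a3, the glutamate transporter GLAST, was at 615, 643, 577 and 645 CPM in NAc Sal and 764, 781, 871 and 782 CPM in NAc METH, with no overlap. It was at 477, 642, 700.3 and 617 CPM in SVZ Sal and 745, 428, 567 and 501 CPM in SVZ METH, which overlapped widely. The log2 interaction was 0.49 ± 0.22 (SE, 95% interval 0.02 to 0.96), and that of Slc1a2, the transporter GLT-1, 0.47 ± 0.28 (SE, 95% interval -0.14 to 1.07). Among 15 microglia genes, 11 were above 0 and 0 had a p under 0.05, with a median of 0.08 that ran from -0.01 (without SVZ METH 1) to 0.14 (without SVZ Sal 4). Cd74, the invariant chain of class II molecules, was at 4.52, 4.61, 2.48 and 3.88 CPM in NAc Sal and 5.24, 4.81, 12.4 and 20.4 CPM in NAc METH, and had 1.38 ± 0.78 (SE, 95% interval -0.27 to 3.04). Its highest values were those of NAc METH 3 and 4, from the run without saline samples. NAc METH 1 and 2 were also above NAc Sal 3 and 4 of their own run. C1qb, a chain of complement C1q, was at 22.4, 22.5, 21.6 and 19.4 CPM in NAc Sal and 31.8, 31.8, 31.1 and 27.9 CPM in NAc METH. Its SVZ levels were 27.9, 23.1, 24.8 and 18.9 CPM after saline and 24.8, 27.1, 29.5 and 31.9 CPM after METH. The NAc groups were separate and the SVZ groups overlapped, with METH effects of 0.51 ± 0.12 and 0.26 ± 0.12 and a log2 interaction of 0.26 ± 0.16 (SE, 95% interval -0.10 to 0.61).

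Lists of cells of the ventricle and the brain surface had medians that moved with single samples. All 10 choroid plexus genes tested had an interaction below 0, with a median of -2.88, and 1 (Kcne2, a potassium channel subunit) had a p under 0.05. The list summed to 416, 14.6, 139 and 53.6 CPM in SVZ Sal and to 12.1, 125, 8838 and 25.4 CPM in SVZ METH. Kcne2 was at 2.20, 1.16, 2.35 and 1.18 CPM in SVZ Sal and 1.89, 1.52, 41.4 and 1.00 CPM in SVZ METH, so that SVZ METH 3 alone was above the other samples. Without NAc METH 3 the list median was -3.82. Without SVZ METH 3 it was 1.53, the log2 interaction of Kcne2 was -0.06 instead of -3.02 and that of Kl, which encodes klotho, was 1.75 instead of -3.05. Among 20 genes of motile cilia, 17 were below 0, with a median of -0.99, and the median ran from -1.93 (without SVZ Sal 4) to 0.06 (without NAc Sal 2). Ak7, an adenylate kinase of cilia, had -3.36 ± 2.16 (SE, 95% interval -7.99 to 1.27) and Tmem212 -3.77 ± 2.47 (SE, 95% interval -9.06 to 1.52), and both had 0 reads in NAc Sal 4 and NAc METH 1, 2 and 4.

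Of 10 genes of fibroblasts and meninges, 9 were above 0, with a median of 1.5, and 3 had a p under 0.05 (1.3 percent of all genes did). Aldh1a2, the enzyme that makes retinoic acid in the meninges, was at 3.24, 2.45, 4.83 and 23.6 CPM in NAc METH and 1.84, 2.03, 1.24 and 1.34 CPM in NAc Sal. In the SVZ it was at 3.83, 15.2, 1.76 and 1.47 CPM after saline and 1.95, 2.26, 4.88 and 1.24 CPM after METH. NAc METH 4 and SVZ Sal 2 were far above the other samples, and the same was true of Slc22a6, an organic anion transporter, at 8.88 and 6.60 CPM, and of Slc6a13, a GABA transporter of the meninges named after its values were seen, at 10.3 and 12.0 CPM. The log2 interactions were 3.51 ± 1.15 (SE, 95% interval 1.04 to 5.98), 4.11 ± 1.41 (SE, 95% interval 1.11 to 7.12) and 2.44 ± 0.93 (SE, 95% interval 0.44 to 4.43). Without NAc METH 4 they were 2.23 for Aldh1a2, 2.20 for Slc22a6 and 1.39 for Slc6a13, of which Aldh1a2 alone still had an unadjusted p under 0.05. The list median ran from 0.48 (without NAc METH 4) to 2.37 (without SVZ METH 3) and was 0.20 with the sequencing run as a covariate. Of 12 endothelial genes, 10 were above 0, with a median of 0.27, which ran from 0.13 (without NAc METH 4) to 0.54 (without SVZ METH 2). Egfl7, a factor that endothelial cells secrete, had 0.72 ± 0.32 (SE, 95% interval 0.05 to 1.39) and Vwf, the von Willebrand factor, 0.67 ± 0.49 (SE, 95% interval -0.39 to 1.73).

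Cholinergic genes were all below 0, 8 of 8, with a median of -1.18 and METH effects of -0.81 in the NAc and 0.39 in the SVZ. Ngfr, the low-affinity receptor of nerve growth factor, was at 1.30, 53.6, 18.8 and 38.0 CPM in NAc Sal and 2.95, 1.66, 32.2 and 0.881 CPM in NAc METH. In the SVZ it was at 3.64, 2.74, 1.37 and 1.06 CPM and 2.27, 28.7, 1.5 and 35.0 CPM. The values fell into a high and a low range within 3 of the 4 groups, and the log2 interaction was -4.48 ± 1.75 (SE, 95% interval -8.22 to -0.74). The cholinergic median ran from -1.66 (without SVZ Sal 2) to -0.80 (without SVZ METH 4). Among 9 genes of GABA interneurons, 7 were above 0, with a median of 0.37, which ran from -0.44 (without SVZ Sal 1) to 0.52 (without SVZ Sal 3) and thus changed sign. Gad2, which makes GABA, had 0.37 ± 0.32 (SE, 95% interval -0.32 to 1.06) and Lhx6, a transcription factor of interneurons, -0.83 ± 0.91 (SE, 95% interval -2.77 to 1.11).

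Lists of stress, stem cell and other neuron genes were near the median of all genes or wide in spread. Of 11 heat shock chaperones, 9 were below 0 with a median of -0.06, and Hspa5, a chaperone of the endoplasmic reticulum, and Dnajb1, a co-chaperone, had -0.35 ± 0.26 (SE, 95% interval -0.91 to 0.20) and -0.20 ± 0.16 (SE, 95% interval -0.54 to 0.14). Of 15 antioxidant genes, 11 were below 0 with a median of -0.12. Mt2A, a metallothionein, was at 5.97, 7.46, 5.49 and 7.32 CPM in NAc Sal and 23.4, 17.2, 3.90 and 21.5 CPM in NAc METH, where NAc METH 3 alone was not above saline, and had 1.40 ± 0.82 (SE, 95% interval -0.35 to 3.16). Gpx4, which reduces lipid peroxides, had -0.47 ± 0.38 (SE, 95% interval -1.27 to 0.34). Of 15 genes of neural stem cells and neuroblasts, 8 were below 0 with a median of -0.09, with -2.07 ± 1.65 (SE, 95% interval -5.61 to 1.47) for Top2a, a topoisomerase of dividing cells, and 0.61 ± 0.72 (SE, 95% interval -0.92 to 2.15) for Sox11, a factor of newborn neurons. Cortical genes (10 of 11 below 0, median -0.34) included Neurod6, a transcription factor of cortical neurons, at -1.52 ± 2.12 (SE, 95% interval -6.06 to 3.02). Thalamic genes (5 of 9 below 0, median -0.30) were led by Ramp3, at -0.92 ± 1.43 (SE, 95% interval -3.98 to 2.15), and Tcf7l2, at -0.61 ± 1.17 (SE, 95% interval -3.12 to 1.89). With single samples left out, the medians of all these lists changed sign. They ran from -0.18 (without SVZ Sal 1) to 0.02 (without SVZ METH 3) for chaperones, from -0.29 (without SVZ METH 1) to 0.02 (without SVZ METH 3) for antioxidant genes and from -0.24 (without SVZ Sal 2) to 0.72 (without SVZ METH 1) for stem cell genes. The cortical median ran from -1.43 (without SVZ Sal 2) to 1.93 (without SVZ METH 1) and the thalamic median from -2.33 (without SVZ Sal 1) to 0.20 (without NAc Sal 2).

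**Figure D5:**
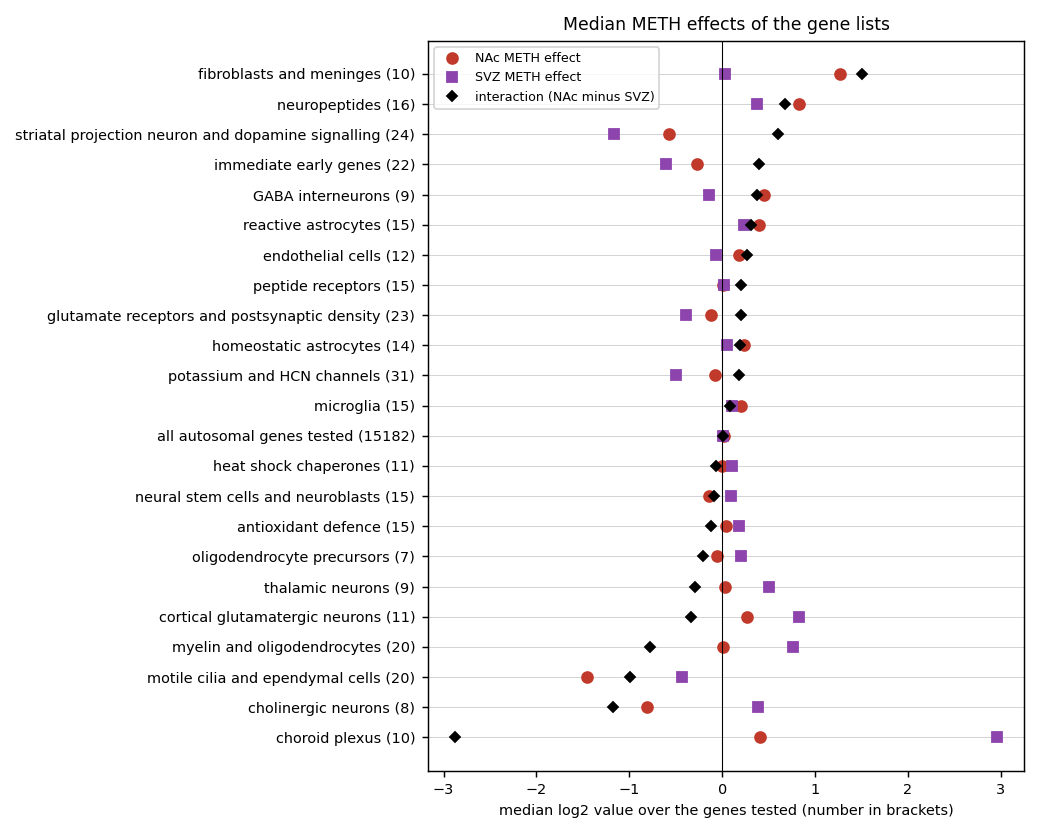
Median log2 METH effect in the NAc (circles) and SVZ (squares) and median log2 interaction (diamonds) over the tested genes of 22 lists and over all 15182 autosomal genes (horizontal axis). The interaction medians run from -2.88 for choroid plexus genes to 1.5 for genes of fibroblasts and meninges, beside 0.01 for all genes.

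The 2 METH effects had the same sign in a further set of genes. With an unadjusted p under 0.05 in each region, 29 genes (0.191 percent) had effects of the same sign, 18 higher and 11 lower after METH, and 4 genes (0.0263 percent) had effects of opposite sign. The following genes were named after their values were seen. Csf3r, the receptor of a granulocyte growth factor, was at 3.44, 5.08, 4.08 and 4.03 CPM in NAc Sal and 6.77, 5.51, 7.17 and 5.15 CPM in NAc METH. It was at 4.21, 3.51, 3.77 and 3.12 CPM in SVZ Sal and 5.79, 5.83, 4.70 and 4.90 CPM in SVZ METH. METH was above saline without overlap in both regions, by 0.56 ± 0.17 and 0.54 ± 0.17 on the log2 scale, and the 95% interval of the interaction was -0.48 to 0.53. Isg20, an exonuclease induced by interferon, Rplp0, a ribosomal protein, and Rbm14, an RNA-binding protein, were the other 3 genes that separated upwards in both regions (4 in all, 0.0263 percent), and 0 genes separated downwards in both. Isg20 had few reads, with 3, 4, 3 and 5 counts in NAc Sal and 6, 5, 16 and 7 in NAc METH. Its SVZ counts were 15, 9, 12 and 5 after saline and 16, 22, 16 and 17 after METH. Its separation thus rests on differences of few reads. The effects were 1.19 ± 0.39 and 0.80 ± 0.34 for Isg20, 0.20 ± 0.09 and 0.20 ± 0.09 for Rplp0, and 0.19 ± 0.07 and 0.14 ± 0.07 for Rbm14, in the NAc and SVZ. Rbm14 had an unadjusted edgeR p of 0.069 in the SVZ and is not among the 29 genes. The NAc effect was 0.78 for Isg20 without NAc METH 3 and 0.12 for Rplp0 without NAc METH 2.

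S100a4, a calcium-binding protein of reactive cells, had effects of 1.28 ± 0.39 in the NAc and 1.11 ± 0.36 in the SVZ, and Gpnmb, a glycoprotein of activated microglia, of 0.73 ± 0.28 and 0.92 ± 0.28. Per1, a gene of the circadian clock, had effects of -0.46 ± 0.21 and -0.49 ± 0.21, with an interval of -0.61 to 0.66 for the difference. Without SVZ METH 3, the SVZ effect of Gpnmb was 0.58. Without NAc Sal 1, at 162 CPM against 85.0 to 93.4 CPM in the other NAc saline samples, the NAc effect of Per1 was -0.20. None of these effects passed the adjustment over all genes in either region (edgeR, smallest FDR 1.00 in the NAc and 0.093 in the SVZ).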

How the data were processed

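RNA was sequenced after rRNA depletion of total RNA. Per the study's methods and the submitters' processing notes, reads were trimmed (cutadapt 2.7), checked (FastQC 0.11.4), aligned to rn6 (STAR 2.5.2b) and counted without strand (featureCounts 1.6.3, mapping quality of at least 10, Ensembl release 95 per the file headers), and the authors deposited raw counts per gene and sample. Reads of overlapping, antisense or near-identical genes cannot be separated. Depth was 11094002 to 14501875 counts per NAc sample and 17269245 to 21869773 per SVZ sample.

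The deposited counts of the 16 samples were fitted with 1 mean per group (R 4.3.3, edgeR 4.0.16, upper-quartile normalization, filterByExpr, quasi-likelihood test). P-values were adjusted by Benjamini-Hochberg over the 15826 genes tested and autosomal genes reported. A call needed an FDR under 0.01 and a fold above 2. SEs came from the F statistic, and intervals are 95%.

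Named genes were the 8 each way with the smallest interaction p at a mean of at least 1 CPM, 11 chosen genes, 2 per list with the smallest p, and those with opposite effects at p under 0.05 in both regions. The members and lists were chosen with earlier results of these data known. Lists are given as counts and medians. Npy, Cxcl10, Rsph4a, Spag6, Otx2, Steap1, Cldn5, Col1a2, Ogn and Hspa1a had too few reads to be tested, and Kcnd2, Lhfpl3, Serpina3n, Foxj1, Pecam1, Hspa1b, Srxn1 and Sox4 matched no gene name used here. Some genes that these rules name are not reported here.

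Alternatives were TMM and DESeq2 size factors, DESeq2 1.42.0, other filters, all 32 samples, replicate blocks, RNA integrity, run, 1, 2 or 4 RUVr factors (unwanted variation estimated from residuals), summed libraries and leaving out each sample. The study itself applied RUVr after upper-quartile normalization. Its methods do not give the number of factors, so RUVr is an alternative here and the main fit is not the study's full procedure. The run was inferred from names in the file headers and is not given in the labels. Limma voom (3.58.1) with weights by region, and leaving out SVZ Sal 1 and 4, were added after seeing the data.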

Additional observations from a re-analysis of the deposited data

Results flagged for a closer look

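In 196 groups of 4 values (the summed lists and the genes of the main rule), 21 held a sample far from the other 3 by Dixon's test, or 10.7 percent. This share is a description and cannot be set against a share by chance. Lists and their own members were both examined, and some genes were chosen by their p in these samples. NAc METH 3 accounted for 9 of them. Its sums were 2093 CPM for neuropeptides, 11039 CPM for myelin, 8623 CPM for homeostatic astrocytes, 753 CPM for antioxidant defence and 378 CPM for thalamic neurons, all above the rest of NAc METH, while Drd1 (7.45 CPM), Egr4 (3.55 CPM) and Tac1 (19.4 CPM) were below and Mbp (6684 CPM) above it.

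SVZ Sal 1 stood apart for thalamic genes (2204 CPM), Nrn1 (114 CPM) and Fosb (1.67 CPM). SVZ METH 3 stood apart for choroid plexus genes (8838 CPM), fibroblast genes (874 CPM) and AABR07044362.1 (0.188 CPM, the other 3 being at 0). NAc Sal 4 stood apart for cortical genes (999 CPM), Nrn1 (44.9 CPM) and RT1-N2 (10.8 CPM). Single values apart from their groups were the sum of cilia genes in NAc Sal 2 (345 CPM), Egr2 in NAc Sal 1 (19.3 CPM) and Galc in SVZ Sal 4 (11.7 CPM).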

How the results depend on the processing

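The interaction had 0 calls in every alternative and with any single sample left out. With 4 RUVr factors 52 autosomal genes reached an FDR under 0.05, with 0 calls at the main threshold. The number of genes at an unadjusted p under 0.05 (198) was 397 without a filter on low counts, 757, 1114 and 2018 with 1, 2 and 4 RUVr factors, 784 without SVZ Sal 1 and SVZ Sal 4 (an alternative added after seeing the data) and 125 to 891 with single samples left out, the lowest without NAc METH 4 and the highest without SVZ Sal 1 (365 above and 526 below 0). It was 572 without NAc METH 3, 410 without SVZ METH 3 and 309 without SVZ METH 1. With the sequencing run, as inferred from the file headers, as a covariate, it was 84 above and 86 below 0. This covariate leaves NAc Sal 3 and 4 against NAc METH 1 and 2 in 1 run. All SVZ samples carried 1 run name in the file headers, so region and run cannot be told apart. Within it, the headers mark SVZ Sal 1 and 2 and SVZ METH 2 and 4 as EXTRA and the other SVZ samples not. Distances from the group mean correlated at 0.61 between SVZ METH 2 and 4 and at -0.62 between SVZ Sal 1 and 2. For SVZ METH samples of 1 library number they correlated at -0.72 (1 and 2) and -0.59 (3 and 4). The part of this mark was not tested, nor was the cause of the shifts in the number of genes.

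In the NAc, 372 genes at this level became 186 with the run as a covariate and 803, 1228 and 2138 with 1, 2 and 4 RUVr factors. In the SVZ, DESeq2 made 2 calls and 1, 2 and 4 RUVr factors made 2, 5 and 99. The 525 SVZ genes at p under 0.05 became 808 with all 32 samples, 264 with SVZ METH libraries of 1 number summed, 251 with limma voom (added after seeing the data), 2353 without SVZ Sal 1 and 4, 2271, 3003 and 3994 with 1, 2 and 4 RUVr factors and 174 to 2982 with single samples left out (lowest without SVZ Sal 3, highest without SVZ Sal 1).

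With the replicate number as a block, the interaction had 134 genes at p under 0.05 (144 with the block within treatment) and the SVZ 274, with 0 calls. Over all pairs of groups, deviations of same-numbered samples correlated at -0.77 to 0.37, and 6 of 24 pairs were above 0.1. Of 16 samples, 2 correlated best with their own number. Only NAc and SVZ samples of the same treatment could come from 1 rat, and these pairs ran from -0.28 to 0.20. Marker sums differed widely within groups, so these values cannot show whether same-numbered samples came from the same rats.

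Of 1207 gene values in 17 alternatives, 17 changed sign, and of 1136 with single samples left out, 5 did. The log2 interaction of Drd2 was -0.17 and -0.10 with 1 and 2 RUVr factors, that of Ppp1r1b -0.15 with 2. Nrn1 was -0.41 with the replicate block, -0.43 with the block within treatment, -0.27 with the RNA integrity number, -0.48 with the run, -0.45, -0.43 and -0.14 with 1, 2 and 4 RUVr factors, -0.47 with limma voom and -1.67 without SVZ Sal 1 and 4. Neurod6 was 0.69 with the replicate block, 1.19 with the block within treatment, 0.26 and 0.68 with 2 and 4 RUVr factors and 1.09 with limma voom. Of 726 list medians over these settings, 42 had the other sign, among them the stem cell list in 10 settings, the cortical and neuropeptide lists in 7 each and the GABA interneuron list in 6 (-0.44 without SVZ Sal 1). With single samples left out, the range was -1.72 to 1.40 for Nrn1, -2.25 to 3.35 for Neurod6, -4.16 to 1.75 for Kl and -2.58 to 0.16 for Top2a. At 11094002 to 21869773 reads per sample, 1 read was worth 0.047 to 0.0953 CPM.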
